A study of Mus musculus with 6 samples.

Results

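The cells described here are CD4 T cells of mouse blood that carried transcripts of Icos, Maf, Itgb1, Rora or Cxcr3 and none of Foxp3 or Ikzf2, which had been labelled memory or activated and non-regulatory. They were chosen by raw counts of unique molecular identifiers (UMIs, each standing for 1 captured transcript): at least 1 UMI over Cd3d, Cd3e and Cd3g, at least 1 of Cd4, none of Cd8a and Cd8b1, at most 1 over the B cell genes Cd79a, Cd79b and Ms4a1, none of Foxp3 and Ikzf2, at most 1 of Ccl5, and a sum of at least 3 over Icos, Maf, Itgb1, Rora and Cxcr3. This rule found 747 of 49025 kept cells (1.52%), with 42, 68 and 104 in control libraries 1 to 3 and 125, 165 and 243 in diabetic libraries 1 to 3. Values of the rule's own genes are therefore a description and carry no test.

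The libraries were of peripheral blood mononuclear cells from male mice 12 to 13 weeks old. The 3 control libraries (Con) came from healthy mice injected intraperitoneally with saline, and the 3 type 2 diabetes libraries (T2D) from mice of a high-fat diet (HFD) model injected intraperitoneally with streptozotocin (STZ), a toxin of pancreatic beta cells. The labels give neither the strain nor the number of mice per library, and diet and toxin cannot be told apart in this design. Since nothing in the labels says that the libraries came from separate animals, p-values measure the spread between libraries, which may be technical.

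CD4 T cells that have not met their antigen circulate between blood and lymph nodes, held there by homing receptors such as Ccr7 and by a transcription programme with Lef1 and Tcf7. After activation they lose part of that programme and gain integrins, chemokine receptors and S100 proteins that serve entry into tissue. Of the selecting genes, Icos is a costimulatory receptor, Maf and Rora are transcription factors of effector and helper cells, Itgb1 is the integrin beta-1 chain and Cxcr3 is a receptor for interferon-induced chemokines.

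Among the 747 cells, 68.0% held a UMI of Icos, 67.7% of Itgb1, 47.8% of Maf, 45.4% of Rora and 19.8% of Cxcr3. Itgb1 gave 42.2% of all UMIs of the 5 genes and Cxcr3 gave 3.84%. In 170 cells (22.8%) all the UMIs came from 1 of the 5 genes, and 49 cells (6.56%) held all 5. At the threshold, 232 cells had a sum of exactly 3, 100 had 4 and 415 had 5 or more, while 413 otherwise eligible cells with a sum of 2 were just outside it. The median depth of the selected cells was 4057 ± 474 UMIs in Con and 3911 ± 178 in T2D (mean of library medians ± SD, n = 3 each).

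Levels of memory genes set the cells with a sum of 5 or more apart from those near the threshold. A list of 42 memory and activation genes (S100a4, S100a6, Cd44, Ccr2, Ahnak and others) summed to 14780 ± 66.0 in Con and 18210 ± 720.1 in T2D among cells with a sum of 5 or more, in CPM (UMIs of the genes scaled to the total UMIs of the same cells, mean ± SD of 3 libraries). In cells with a sum of 3 the same list summed to 5949 ± 127 CPM in Con and 7435 ± 554 in T2D, against 5574 ± 163 and 6091 ± 83.3 in CD4 T cells with none of the 5 genes. A list of 20 naive and central T cell genes (Ccr7, Lef1, Tcf7 and others) ran the other way, at 16860 ± 575 CPM in Con cells with a sum of 3 and 9450 ± 1353 in those with 5 or more. Con cells with a sum of 3 thus stood near the marker-negative cells in both lists. T2D cells with a sum of 3 lay above them in the memory list, and those with a sum of 4 ranged from 7185 to 12380 CPM. Of the 415 cells with a sum of 5 or more, 54 also held at least 5 UMIs of monocyte genes, which are described below. Without such cells the memory list summed to 14600 ± 476 CPM in Con and 17530 ± 985 in T2D at a sum of 5 or more, and to 5461 ± 186.5 and 6196 ± 529 at a sum of 3, where T2D libraries then overlapped the marker-negative ones. The list was written with earlier results of these data known, so its level describes the cells and gives no independent evidence for the label. The set is called selected CD4 T cells below.

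**Figure D1:**
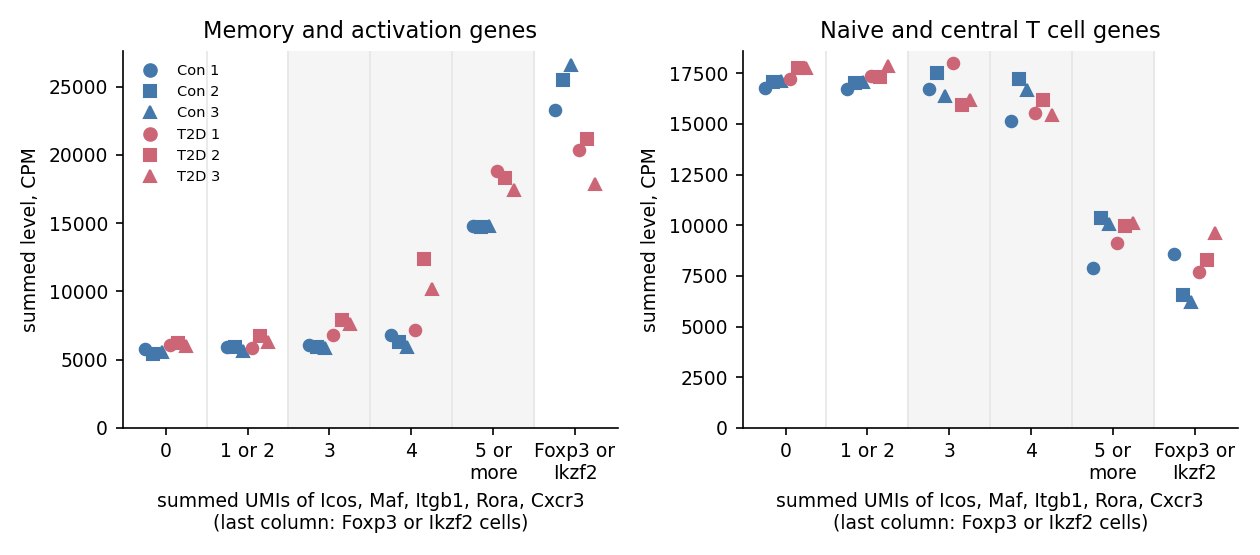
Summed level (CPM) of the memory and activation genes (left) and the naive and central T cell genes (right) in each library, for CD4 T cells grouped by their summed UMIs of Icos, Maf, Itgb1, Rora and Cxcr3, with the Foxp3 or Ikzf2 cells in the last column; the grey band holds the selected cells. Cells with a sum of 5 or more stand apart from all lower sums in both panels, at 14780 CPM of memory genes in Con against 5949 CPM at a sum of 3; the Foxp3 or Ikzf2 cells, which met the same threshold, lie between 17870 and 26580 CPM.

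The mix of these cells differed between the groups. Cells with a sum of 5 or more made up 31.0%, 41.2% and 38.5% of the selected cells in Con libraries 1 to 3, and 61.6%, 65.5% and 61.3% in T2D libraries 1 to 3. Every T2D library lay above every Con library, so a difference between T2D and Con over all selected cells moves with this mix. The share of each difference that goes with the mix was not tested, and values within the narrower sums are given beside the results.

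Transcripts of monocytes were present in some selected cells. Of 747 cells, 81 (10.8%) held at least 5 UMIs over 12 monocyte genes (Lyz2, Csf1r, Cd14, F13a1 and others), against 2.28% of the marker-negative CD4 T cells. Those 81 cells had a median of 7289 UMIs against 3799 in the other selected cells, with medians of 24 and 23 T cell receptor and CD3 UMIs. In the 44 of them with 10 or more monocyte UMIs that median was 18.5, and in the 10 such cells of T2D 3 it was 2. They made up 21.4%, 5.88% and 10.6% of the selected cells in Con and 8.80%, 15.2% and 8.64% in T2D, so the groups overlapped. Scrublet, a caller of barcodes that hold 2 cells, marked 21 of the 747 cells, and 0 of those 10. The gene-level fits against marker-negative cells and against Foxp3 or Ikzf2 cells are given below without the cells that held 5 or more monocyte UMIs, a choice made after seeing the data. Shares of single cells and the test of a difference between T2D effects use all 747.

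Pairs of libraries shared 63 to 86 of their cell barcodes, and 29 selected barcodes were also seen in another library. The kept cells held 23574052 to 32321855 UMIs in a library, and the summed selected cells 220443 (Con 1) to 1045794 (T2D 3). The median mitochondrial share of the selected cells was 5.18% to 5.57% in Con and 4.12% to 4.87% in T2D, without overlap, and marker-negative cells gave 5.43% to 5.94% and 4.58% to 5.20%. Haemoglobin and other red blood cell genes summed to 122.5 to 187 CPM in selected Con cells and 285 to 631 in T2D, and reached 7948 CPM in marker-negative cells. The part of either in the results was not tested.

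Selected cells were a larger share of blood mononuclear cells in T2D. They made up 0.554%, 0.927% and 1.28% of kept cells in Con libraries 1 to 3, and 1.39%, 1.87% and 2.97% in T2D libraries 1 to 3. Every T2D library lay above every Con library, although T2D 1 and Con 3 were close. The mean was 0.921% ± 0.364 in Con and 2.08% ± 0.810 in T2D (SD, n = 3 each), a ratio of 2.26, and the two-sided exact permutation test gave p = 0.1, the smallest that 3 against 3 libraries allow. Wilson 95% limits, which cover counting error alone, were 0.410% to 0.749% for Con 1 and 2.62% to 3.36% for T2D 3.

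Cells with a sum of 5 or more were 0.349% ± 0.163 of kept cells in Con and 1.30% ± 0.487 in T2D (exact permutation p = 0.1, n = 3 each). The ratio, 3.73, was larger than that of all selected cells, while the difference, 0.952 percentage points, was smaller than their 1.16, and the contrast was not tested. With every cell thinned to 2000 UMIs, which left out 9365 shallower cells, the selected share was 0.441% ± 0.184 in Con and 1.49% ± 0.506 in T2D, again without overlap. Among CD4-gated T cells the selected share was 10.6% ± 2.80 in Con and 17.5% ± 3.42 in T2D, a ratio of 1.64. Con 3 (13.42%) and T2D 1 (13.65%) were close in that share. CD4-gated cells themselves were 7.09% to 9.55% of kept cells in Con and 10.1% to 14.7% in T2D, without overlap. Marker-negative CD4 T cells, in contrast, were 4.59% ± 0.545 and 4.54% ± 0.517 of kept cells and overlapped (exact permutation p = 1). A higher share in T2D was not particular to the selected cells. Foxp3 or Ikzf2 cells that met the same thresholds were 0.176% ± 0.0720 of kept cells in Con and 0.675% ± 0.398 in T2D, and otherwise eligible CD4 T cells with 2 or more UMIs of Ccl5 were 0.159% ± 0.0451 and 0.720% ± 0.230. Neither overlapped between the groups (exact permutation p = 0.1 each, n = 3 each). As a background, 2.93% ± 0.393 of B cells in Con and 3.96% ± 0.668 in T2D reached a sum of 3 over the 5 selecting genes, against 15.0% ± 3.14 and 30.6% ± 3.35 of CD4-gated cells. The B cells numbered 3677 to 3980 in Con libraries and 2821 to 3698 in T2D libraries, among 7339 to 8115 and 8183 to 8997 kept cells. The part of B cell numbers in the shares of kept cells was not tested.

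**Figure D2:**
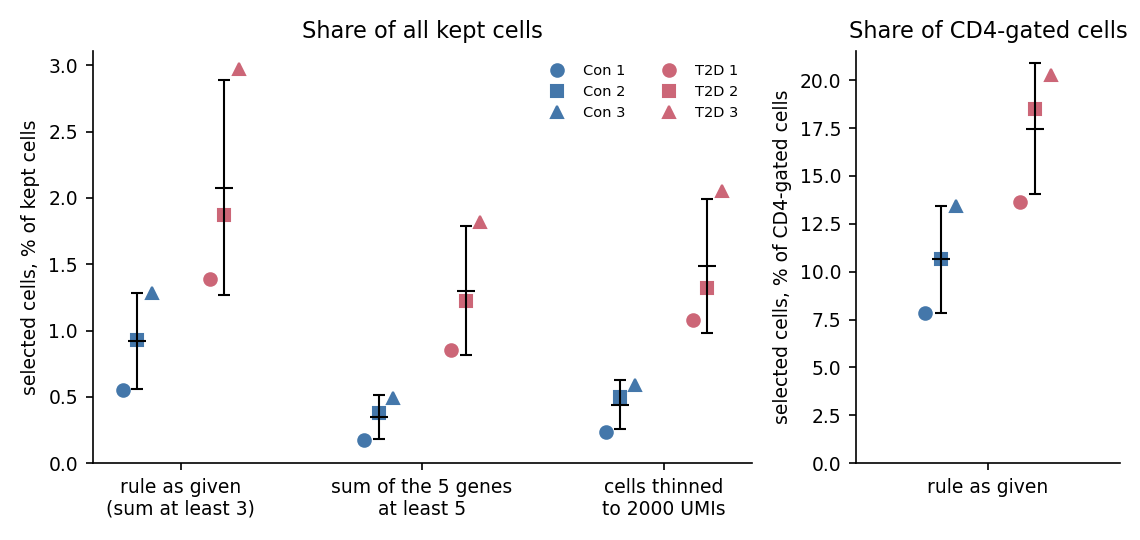
Selected cells as a percentage of kept cells (left, under 3 versions of the rule) and of CD4-gated T cells (right), with 1 point per library and the mean ± SD of 3 libraries in black. In all 4 versions the 3 T2D libraries lie above the 3 Con libraries. Under the rule as given they lie between 1.39% and 2.97% of kept cells, against 0.554% to 1.28%. On the right T2D 1 (13.65%) lies close to Con 3 (13.42%).

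Beyond the genes of the rule, the largest rises of the selected cells over marker-negative CD4 T cells, among called genes with at least 50 CPM, were those of Cxcr6, Tmem176a, Ccr2, S100a4, Atp2b4, Tmem176b, Bhlhe40, Nrp1, Ahnak, Myo1f, Tiam1 and S100a6. In a quasi-likelihood test on UMIs summed per library (edgeR, library as a term, Benjamini-Hochberg adjusted p under 0.05), 852 of 7582 genes were called (11.2%) without the monocyte-UMI cells, 460 higher (6.07%) and 392 lower (5.17%). Over all 747 cells 1351 of 7881 were called (17.1%), 790 higher and 561 lower (7.12%), and all 10 measured monocyte genes were among the higher ones. Values below are without the monocyte-UMI cells. Cxcr6, a chemokine receptor of tissue-homing T cells, averaged 50.8 ± 32.9 CPM in selected and 0.984 CPM in marker-negative cells over the 6 libraries, a log2 difference of 5.46 ± 0.41 (SE, adjusted p = 4.77e-23 in edgeR's quasi-likelihood test). Ccr2, a receptor that draws leukocytes to inflamed tissue, stood at 112 ± 41.2 CPM against 3.72 CPM. S100a4, a calcium-binding protein of motile cells, read 118, 178 and 151 CPM in selected Con cells and 255, 276 and 199 in T2D cells. In marker-negative cells it did not exceed 14.2 CPM in any library, so the 2 kinds of cell did not overlap. Of the leading genes named above, Ahnak and S100a6 reached the filter on low counts, described below, in every library of marker-negative cells. Cxcr6, Tmem176a, Ccr2, S100a4, Tmem176b, Bhlhe40 and Nrp1 did not. Atp2b4, Myo1f and Tiam1 averaged 5.245, 7.628 and 6.653 CPM in those cells, under its cutoff of 10.38 CPM. All of these rises but those of Ahnak and S100a6 are therefore a description.

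Genes entered a fit when enough libraries reached a filter on low counts. A gene that passed it only through the cells where it was high had to differ, so the counts by list also give the members that reached the filter in every library of the other cells. Of the 42 memory and activation genes 35 were measured, 29 of them rose (background 6.07%) and 1 fell. The 29 held 22 genes that reached the filter in marker-negative cells. Anxa2, Bhlhe40, Ccr2, Cxcr6, Lgals3, Nkg7 and S100a4 did not, so their rises are a description. S100a6 rose by 3.35, Ahnak, a large scaffold protein of the membrane, by 3.78, Bhlhe40, a transcription factor of cytokine-producing helper cells, by 3.99, and Cd44, the hyaluronan receptor of antigen-experienced cells, by 2.46 on the log2 scale. Ly6c1 was the 1 gene of the list that fell, by 1.21. Since the memory list was written with earlier results of these data known, its count describes these cells and gives no independent evidence for the label.

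The naive and central list fell in 14 of 19 measured genes (background 5.17%) and rose in none, and all 19 reached the filter in both kinds of cell. Lef1 fell by 0.63, Ccr7 by 0.68 and Igfbp4, a secreted binder of insulin-like growth factors, by 0.81 on the log2 scale. Tcf7 did not pass, at 1996 ± 144 CPM in selected and 2188 CPM in marker-negative cells (log2 difference -0.14, adjusted p = 0.0942 in edgeR's quasi-likelihood test). Hbb-bt, a haemoglobin chain that marks red blood cell RNA, averaged 16.8 ± 9.52 CPM against 213.7 ± 318 CPM. Its marker-negative values ran from 6.07 CPM (Con 1) to 838 CPM (T2D 1), so that mean rests largely on T2D 1.

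Genes of several helper types were among those called higher in the selected cells, and they are given as a description. The background for each count in this paragraph is 6.07% of genes called higher and 5.17% called lower. Of 12 type 17 genes 4 were measured. Ccr6, a chemokine receptor of type 17 cells, Tmem176a and Tmem176b were called higher, and none of these 3 reached the filter in marker-negative cells. Of 8 measured type 1 genes 5 were higher. Cxcr6 and Il18rap, a chain of the interleukin-18 receptor, led them and did not reach the filter in marker-negative cells, which the other 3 did. Of the type 2 genes Gata3, the type 2 transcription factor, was higher and reached the filter in both kinds of cell, Ccr4, a skin and lung homing receptor, was higher without reaching it in marker-negative cells, and Il4ra, the interleukin-4 receptor chain, fell by 0.90. Of 9 measured follicular helper genes 5 were higher (Cd200 by 0.87 and Slamf6 by 0.78 among them), all of which reached the filter in both kinds of cell, and Tox fell by 0.54. The 6 measured regulatory T cell genes other than those of the rule were higher too, with Nrp1 at 3.78 and Ctla4, a checkpoint receptor, at 2.23 on the log2 scale. Nrp1, Ctla4 and Tnfrsf4 did not reach the filter in marker-negative cells.

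In single cells, Il17a, the cytokine that names type 17 cells, was seen in 2.95% of 747 selected cells and 0.0282% of B cells, which should lack it. Tbx21, the type 1 transcription factor, was seen in 2.14% of selected cells, and 0.818% of B cells also held it. Gata3 was broad, with a UMI in 34.0% of selected and 23.0% of marker-negative cells and 0.578% of B cells. After thinning to 2000 UMIs these shares were 2.29% for Il17a, 1.14% for Tbx21 and 22.6% for Gata3 in the selected cells. Of the 16 cells with Tbx21, 7 also held Cxcr3. Cxcr5, the follicular homing receptor, was seen in 3.75% of selected and 0.358% of marker-negative cells, and in 17.5% of B cells, which express it.

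Against CD4 T cells that met the same thresholds but carried Foxp3 or Ikzf2, the transcription factors of regulatory T cells, the selected cells had lower levels of the measured regulatory genes and higher levels of most naive ones. There were 213 such cells, with 10, 10 and 21 in Con libraries 1 to 3 and 33, 47 and 92 in T2D libraries 1 to 3. Of these, 43.9% in Con and 33.7% in T2D held a UMI of Foxp3, and 100% and 95.9% held one of Ikzf2. Foxp3 was thus not seen in most of them, and regulatory cells in which neither gene was captured could be among the selected cells. Over all cells 441 of 4215 genes were called (10.5%), 247 higher (5.86%) and 194 lower (4.60%). Without the monocyte-UMI cells, whose values follow, 419 of 3637 were called (11.5%), 221 higher (6.08%) and 198 lower (5.44%). The mix of sums differed, since 168 of the 198 remaining Foxp3 or Ikzf2 cells had a sum of 5 or more, against 361 of 666 selected cells. With both kinds of cell at a sum of 5 or more, 154 of 2734 genes were called (5.63%), 94 higher (3.44%) and 60 lower (2.19%).

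The 6 measured regulatory genes outside the rule were called lower (background 5.44%), as were 4 of 5 at a sum of 5 or more (background 2.19%). Since 5 of the 6 did not reach the filter in every library of selected cells, these counts are a description. Ctla4 averaged 150.3 ± 52.3 CPM in selected and 669 CPM in Foxp3 or Ikzf2 cells, and Nrp1, a co-receptor of regulatory T cells, 68.9 ± 33.1 CPM against 398 CPM. The kinds of cell did not overlap for either gene. Ctla4 stood at -1.33 and Nrp1 at -1.72 on the log2 scale at a sum of 5 or more, both called. Tnfrsf4, the receptor OX40, was at -1.92 and Tnfrsf18, the receptor GITR, at -1.44 on the log2 scale over all sums. Klrg1, an inhibitory receptor of effector cells, did not exceed 8.28 CPM in a selected library and ranged from 58.4 to 309 CPM in Foxp3 or Ikzf2 cells. Il1rl1, the interleukin-33 receptor, averaged 15.9 ± 15.2 CPM against 269 CPM. Neither Klrg1 nor Il1rl1 reached the filter in every library of selected cells, so both falls are a description.

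Of 33 memory and activation genes 14 also fell against the Foxp3 or Ikzf2 cells (background 5.44%), 11 of which reached the filter in selected cells. Anxa2, Glrx and Klrg1 did not, so their falls are a description. Itgb3 and Ly6c1 rose (background 6.08%) and did not reach the filter in Foxp3 or Ikzf2 cells. S100a10, the partner of annexin A2, stood at 654 ± 186 CPM in selected and 2132 CPM in Foxp3 or Ikzf2 cells, and Anxa2 itself fell by 1.86 on the log2 scale. Of 19 naive and central genes 13 rose (background 6.08%) and none fell, led by Igfbp4 (1030 ± 207 CPM against 92.9 CPM), Dapl1 and Satb1. Of the 13, 7 reached the filter in Foxp3 or Ikzf2 cells, Satb1 among them but neither Igfbp4 nor Dapl1. Limited to a sum of 5 or more, 7 of 28 memory and activation genes fell (background 2.19%) and 2 rose (3.44%), and 6 of 16 naive and central genes rose (3.44%). Of those, 5 of the 7 and 4 of the 6 reached the filter in the cells where they were lower. Lef1, at 1.26 over all sums, had no call there (adjusted p = 0.0680 in edgeR's quasi-likelihood test). Cd40lg, the ligand through which helper T cells reach B cells, rose by 0.81 on the log2 scale.

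**Figure D3:**
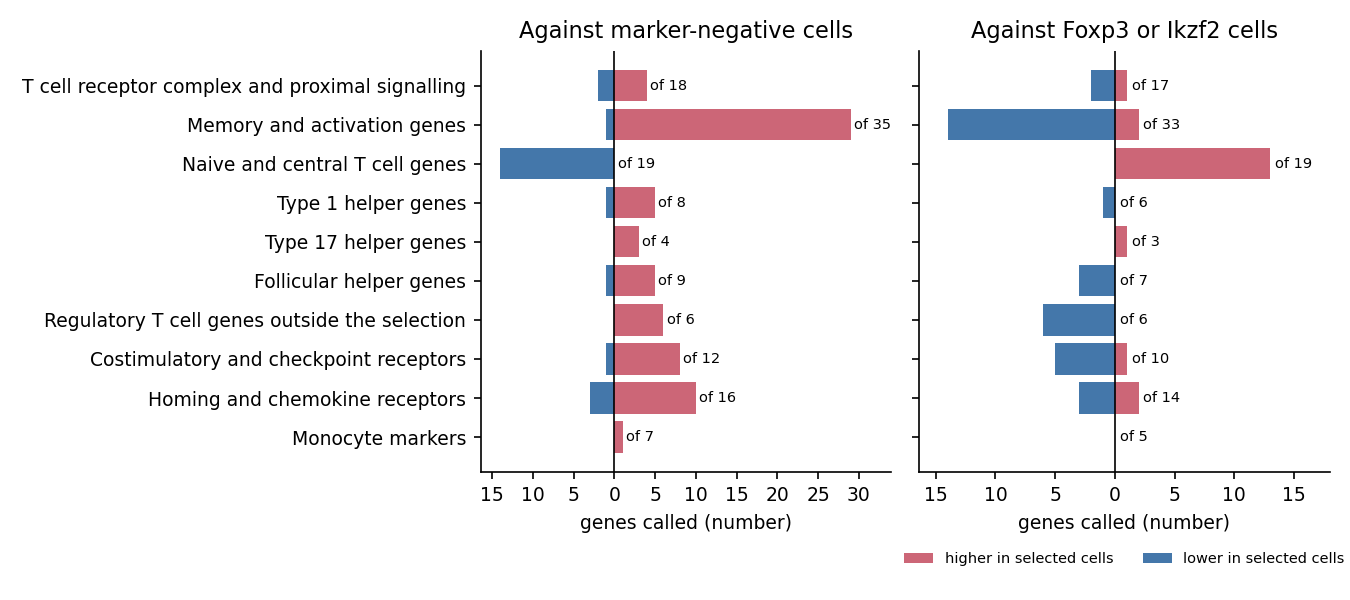
Number of genes called higher (red) or lower (blue) in selected cells than in marker-negative CD4 T cells (left) and Foxp3 or Ikzf2 CD4 T cells (right), by gene list, without cells that held 5 or more monocyte UMIs; "of" gives the genes measured, including those that reached the filter on low counts in 1 kind of cell only. The memory and activation list has 29 of 35 genes higher on the left and 14 of 33 lower on the right, and the naive and central list 14 of 19 lower on the left and 13 of 19 higher on the right.

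Between T2D and Con, the selected cells of T2D mice had lower levels of Nr4a3, Dusp10, Skil, Smad7, Per1 and Maff and higher levels of S100a6, S100a10, Ly6a, Ybx3 and Acsbg1. Nr4a3 did not reach the filter on low counts in every T2D library, nor did Ybx3 and Acsbg1 in every Con library. Their changes are given as a description. Of 6361 genes tested over the 747 cells, 91 were called (1.43%), 48 higher (0.755%) and 43 lower (0.676%), whereas DESeq2 called 56, 18 higher and 38 lower. In edgeR's set all 91 were without overlap between the groups, as were 1120 genes (17.6%) in all. The calls depended on single libraries: 29 were made without Con 3, 40 without T2D 1, 46 without T2D 2 and 44 without T2D 3. They also depended on the cells: 190 were called without the called doublets, 85 higher and 105 lower. After thinning to 2000 UMIs edgeR called 0, with 187 at an unadjusted p under 0.05, and DESeq2 called 0. A set of 17 genes was called whichever library was left out, 12 lower and 5 higher. Without the monocyte-UMI cells, 101 of 5750 genes were called (1.76%), 43 higher (0.748%) and 58 lower (1.01%), with 73 of the 91 among them. In sums over cells, fewer cells that express a gene and less RNA of it per cell cannot be told apart.

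Narrowing the cells lowered the number of calls. Among cells with a sum of 3 or 4, 16 of 3970 genes were called (0.403%), 8 in each direction (0.202%), and among cells with a sum of 5 or more none of 4692, with 326 at an unadjusted p under 0.05 in edgeR and 1 called by DESeq2. Taking 42 selected cells at random from every library, of any sum, left 66 of 3708 genes called, 48 of the 91 among them. All 87 of the 91 genes that could be tested at a sum of 5 or more had the same direction there, as had all 70 testable at 3 or 4, but these cells are subsets of the same 747. At a sum of 5 or more the Con libraries held 13, 28 and 40 cells.

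Nr4a3, an orphan nuclear receptor switched on by T cell receptor signals, read 121, 128.5 and 113 CPM in Con libraries 1 to 3 and 12.3, 27.6 and 17.1 CPM in T2D libraries 1 to 3. All 3 T2D libraries were far below the Con libraries, with a log2 fold change of -2.62 ± 0.29 (SE, adjusted p = 5.43e-05 in edgeR's quasi-likelihood test). It fell also in marker-negative cells, by 2.26 on the log2 scale, from 125 ± 29.2 to 26.3 ± 10.1 CPM. In cells with a sum of 3 or 4 the log2 fold change was -2.99 and was called, and at a sum of 5 or more it was -1.77 and was not. Nr4a3 did not reach the filter on low counts in every T2D library, over all selected cells or at a sum of 3 or 4. Its falls in both are therefore a description.

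Dusp10, a phosphatase that restrains the stress kinases JNK and p38, stood at 689, 925 and 583 CPM in Con and 287, 294 and 254 CPM in T2D. The groups were well separated, at -1.39 ± 0.15 on the log2 scale (adjusted p = 6.20e-05 in edgeR's quasi-likelihood test). Csrnp1, a nuclear protein induced by axin and by cytokine signals, read 490, 317 and 299 CPM in Con and 215, 167 and 159 CPM in T2D, and lost its call without T2D 3. Junb, an AP-1 subunit, read 2476, 1738 and 1698 CPM in Con and 1276, 1435 and 1188 CPM in T2D, and lost its call without any 1 library other than Con 2.

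Those 4 genes were the called members of a list of receptor-induced early genes, of which 4 of 34 measured fell (background 0.676%) and none rose. Nr4a3 alone of the 4 did not reach the filter in every T2D library. Without the monocyte-UMI cells 8 of 33 fell (background 1.01%), 6 of which reached the filter in every T2D library. Nr4a3 and Pim3 did not, so their falls are a description. Nr4a1, the best-known receptor-induced nuclear receptor, stood at 780.5 ± 514 CPM in Con and 399 ± 135 in T2D and was called without the monocyte-UMI cells alone (log2 fold change -0.86, adjusted p = 0.00240 in edgeR's quasi-likelihood test). Members with no call in either fit included Fos at 493 ± 45.0 and 636 ± 201, and Cd69 at 321 ± 59.4 and 275.5 ± 49.0. The same list had 15 of 35 genes lower in marker-negative cells of the same libraries, where 113 of 8166 genes were called (1.38%), 40 higher (0.490%) and 73 lower (0.894%).

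Since these genes fell together, their promoters are shown, each 300 bases long and running past the annotated start (RefSeq, GRCm38.p6, the build the submitters' notes call mm10), 5′ to 3′ on the gene's strand. Capitals mark TGACG on either strand, the core of the element bound by CREB and ATF factors. The windows are chr4:48045055-48045354 for Nr4a3 (plus strand), chr9:119983730-119984029 for Csrnp1 (minus strand, chosen among its 4 listed starts for the most matches), chr8:84978699-84978998 for Junb (minus strand) and chr1:184034131-184034430 for Dusp10 (plus strand).
Nr4a3: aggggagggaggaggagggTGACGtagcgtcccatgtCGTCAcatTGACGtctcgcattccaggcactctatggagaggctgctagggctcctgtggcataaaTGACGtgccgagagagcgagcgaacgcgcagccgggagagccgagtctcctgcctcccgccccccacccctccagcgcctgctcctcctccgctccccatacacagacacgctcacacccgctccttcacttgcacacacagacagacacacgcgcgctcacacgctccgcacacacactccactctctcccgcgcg
Csrnp1: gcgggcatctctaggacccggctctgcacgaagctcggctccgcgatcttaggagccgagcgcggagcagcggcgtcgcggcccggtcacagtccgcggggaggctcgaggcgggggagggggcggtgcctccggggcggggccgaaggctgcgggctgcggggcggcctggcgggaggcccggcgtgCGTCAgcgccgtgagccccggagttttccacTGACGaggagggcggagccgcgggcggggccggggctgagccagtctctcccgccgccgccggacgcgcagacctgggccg
Junb: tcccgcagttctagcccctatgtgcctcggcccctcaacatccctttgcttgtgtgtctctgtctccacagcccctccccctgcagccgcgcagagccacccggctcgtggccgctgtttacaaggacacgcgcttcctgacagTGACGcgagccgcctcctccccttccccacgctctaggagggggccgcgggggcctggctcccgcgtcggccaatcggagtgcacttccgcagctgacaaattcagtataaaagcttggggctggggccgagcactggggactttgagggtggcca
Dusp10: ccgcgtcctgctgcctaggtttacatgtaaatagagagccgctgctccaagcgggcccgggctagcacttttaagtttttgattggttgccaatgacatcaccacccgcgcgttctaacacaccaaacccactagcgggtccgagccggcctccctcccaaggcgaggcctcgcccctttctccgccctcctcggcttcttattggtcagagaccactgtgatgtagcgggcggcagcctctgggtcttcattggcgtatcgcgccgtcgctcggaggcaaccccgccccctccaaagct

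Nr4a3 held 4 matches, the farthest 231 and the nearest 147 bases before the start, Junb 1 and Dusp10 none. Csrnp1 held 2 in the window shown, the most of any of its listed starts. Of all 32851 listed promoters 20.8% held TGACG, and of 5143 tested genes with a listed promoter 39.1% held it in at least 1. Among the called genes it was present for 19 of 35 lower genes and 6 of 40 higher genes. The search covered 10 motifs on both strands, and this one was picked after the counts were seen. The full palindrome TGACGTCA, which contains the core, was present for 4 of 35 lower genes and 0 of 40 higher genes (3.85% of tested genes). The AP-1 motif TGANTCA was present for 3 of 35 and 4 of 40 (5.70%), and the E-box CACGTG for 6 of 35 and 5 of 40 (12.8%). The STAT motif TTCNNNGAA was present for 5 of 35 and 3 of 40 (8.36%). The SMAD motif CAGACA was present for 8 of 35 and 8 of 40 (17.4%), the SMAD motif GTCTGNC for 3 of 35 and 10 of 40 (16.8%), and the SMAD palindrome GTCTAGAC for none (0.253%). The CRE variant TGACGTNA, which also matches the palindrome, was present for 5 of 35 and 0 of 40 (6.38%), and the CRE variant TGACGTAA for none (1.03%).

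Both called members of the list of TGF-beta feedback genes fell (2 of 12 measured, background 0.676%, none higher). Skil, a co-repressor of SMAD proteins, read 422, 372.5 and 315 CPM in Con and 139, 168 and 121 CPM in T2D, at -1.36 ± 0.17 on the log2 scale (adjusted p = 0.000108 in edgeR's quasi-likelihood test). Smad7, the inhibitory SMAD, read 485.5, 531 and 431 CPM in Con and 244, 230.2 and 224.5 CPM in T2D, at -1.04 ± 0.13. No library overlapped for either gene. Smad7 fell also in marker-negative cells, by 0.78 on the log2 scale. At a sum of 5 or more without monocyte-UMI cells, Smad7 was 1 of 3 called genes (the others were Cxcr4 and Rgs1), at -1.13 (adjusted p = 0.0204 in edgeR's quasi-likelihood test). Skil fell more in selected than in marker-negative cells, by a further 0.75 (adjusted p = 0.0149 in edgeR's interaction test).

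Per1, a period protein of the circadian clock that glucocorticoids also induce, read 539, 544 and 517 CPM in Con and 249.9, 309 and 283.5 CPM in T2D. The groups were clearly apart, at -0.92 ± 0.13 on the log2 scale, and marker-negative cells gave nearly the same change, -0.94. Per1 was the 1 called gene of 12 in the circadian and glucocorticoid list (background 0.676% lower). The time of blood sampling is not given in the labels. Maff, a small MAF protein, stood at -1.40 and Phf13, a reader of histone H3 methylation, at -1.50 on the log2 scale, and both were called without each library in turn.

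Lef1, a transcription factor of naive T cells, read 1155, 912 and 834 CPM in Con and 612.5, 580.4 and 542 CPM in T2D, at -0.73 ± 0.12 on the log2 scale. Satb1 and Foxp1, further factors of the naive state, stood at -0.53 each, which made 3 of 19 naive and central genes lower (background 0.676%) and none higher; Satb1 lost its call without any 1 of Con 1, Con 3, T2D 2 and T2D 3, and Foxp1 without any but Con 1. At a sum of 5 or more without monocyte-UMI cells Satb1 had the opposite sign, at 0.14. In marker-negative cells Lef1 was at -0.08 and had no call, and it had none at a sum of 3 or 4 (-0.39, adjusted p = 0.369 in edgeR's quasi-likelihood test) or at a sum of 5 or more (-0.26). In cells with a sum of 3 alone, Lef1 made up 1075 to 1543 CPM of all UMIs in the Con libraries and 803 to 1040 CPM in the T2D libraries, without overlap. The groups overlapped at a sum of 4, at 809 to 1217 CPM in Con and 830 to 1049 in T2D. They overlapped also at a sum of 5 or more, at 267 to 507 CPM in Con and 341 to 378 in T2D. The part of the smaller share of cells at a sum of 3 or 4 in T2D was not tested.

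The memory and activation list rose in 14 of 36 measured genes (background 0.755%) and fell in none, and 12 of the 14 reached the filter in every Con library. S100a6 read 301, 244 and 311 CPM in Con and 612.5, 675.5 and 536 CPM in T2D, at 1.08 ± 0.14 (adjusted p = 0.000158 in edgeR's quasi-likelihood test). S100a10 read 282, 471 and 422 CPM in Con and 754, 775 and 743 CPM in T2D. Both S100 genes were clear of overlap and were called without each library in turn. Ly6a, the surface protein Sca-1, stood at 245 ± 39.8 CPM in Con and 457 ± 66.4 in T2D.

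Lgals1, a secreted galectin, read 97.1, 167 and 170.0 CPM in Con and 508, 532 and 310.1 CPM in T2D, and Vim, the intermediate filament vimentin, averaged 614 ± 127 and 1058 ± 172.5 CPM. Nkg7, a granule membrane protein of cytotoxic cells, rose by 1.74 on the log2 scale, from 29.1 ± 9.56 to 102 ± 36.3 CPM. It did not reach the filter in every Con library, so its rise is a description. Lgals1 lost its call without any 1 of the Con libraries or T2D 1, Vim without Con 1, T2D 2 or T2D 3, and Nkg7 without Con 3. Without the monocyte-UMI cells 13 of 33 genes of the list rose (background 0.748%), 11 of which reached the filter in Con. At a sum of 5 or more none of 35 genes of the list was called. At a sum of 3 or 4, 2 of 25 genes of the list rose (background 0.202%), 1 of which reached the filter in every Con library. S100a6 did not, so its rise at these sums is a description. In marker-negative cells 3 of 32 genes were higher (background 0.490%).

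Ybx3, a cold-shock domain protein that binds mRNA, read 14.6, 59.9 and 68.0 CPM in Con and 174, 143 and 187 CPM in T2D. Acsbg1, an acyl-CoA synthetase, read 4.86, 21.4 and 20.4 CPM in Con and 75.8, 88.2 and 78.0 CPM in T2D, at 2.24 ± 0.35 on the log2 scale. Con 1 was the lowest library for both genes and lay below the filter on low counts (20.51 CPM). For Acsbg1 Con 3 (20.4 CPM) also lay below it, and Con 2 (21.4 CPM) was close to it. Both rises are therefore a description. The T2D libraries were close to one another. Of 12 dividing-cell genes 5 passed the filter, and 3 of those were called higher: Top2a, the topoisomerase of replicating DNA, from 16.5 ± 6.50 to 90.8 ± 38.9 CPM, Mki67, the proliferation antigen, from 23.7 ± 12.6 to 72.1 ± 15.1 CPM, and Hmgb2, a chromatin protein, by 0.87 on the log2 scale. Top2a and Mki67 did not reach the filter in every Con library, so the count of 3 (background 0.755%) is a description. All 3 lost their calls without Con 3, and Mki67 also without Con 1, T2D 1 or T2D 3. Without the monocyte-UMI cells Mki67 (log2 fold change 0.82, adjusted p = 0.375 in edgeR's quasi-likelihood test) and Hmgb2 (0.54, adjusted p = 0.0548) had no call. Tmem176a and Tmem176b, channel-like proteins of type 17 cells, rose by 1.00 and 0.96, which made 2 of 6 type 17 genes higher (background 0.755%); Tmem176a lost its call without any 1 library but Con 1 and without the monocyte-UMI cells, and Tmem176b without any 1 library but Con 3.

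**Figure D4:**
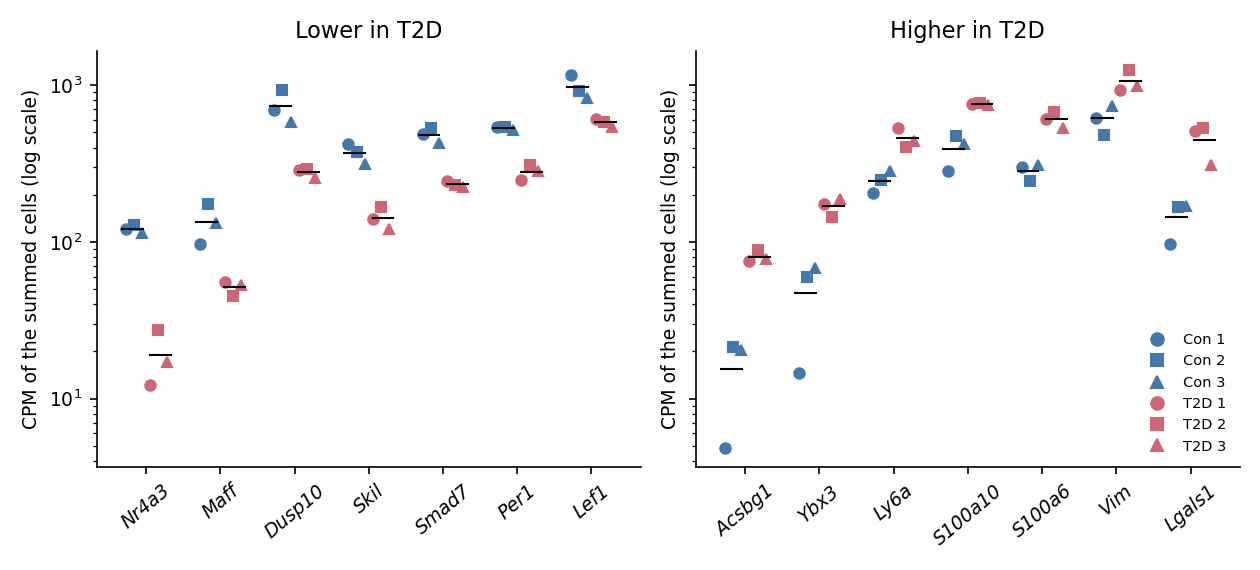
CPM on a log scale of 7 genes that fell (left) and 7 that rose (right) in T2D, with 1 point per library of summed selected cells and a black line at each mean of 3 libraries. No gene has a T2D library within the range of the Con libraries; Nr4a3 runs from 113 to 128.5 CPM in Con and from 12.3 to 27.6 CPM in T2D.

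The remaining lists gave few calls or none, beside a background of 0.755% of genes called higher and 0.676% called lower. Among homing receptors Itgb7, the integrin chain of gut homing, rose by 0.60 and Cxcr4, the receptor for CXCL12, fell by 0.63, with 17 measured; Itgb7 lost its call without Con 2, T2D 1 or T2D 3, and Cxcr4 without Con 2, Con 3, T2D 1 or T2D 3. Ifngr2, a chain of the interferon-gamma receptor, fell by 0.96 and was the 1 called gene of 18 in the cytokine receptor list, which it lost without Con 3 or T2D 1. In 18 lists that held 189 tested genes edgeR called 0, and DESeq2 also called 0. At an unadjusted p under 0.05 in edgeR there were 38 of the 189, beside 768 of all 6361 genes tested. These lists included the T cell receptor complex (0 of 18 called, 0 at an unadjusted p under 0.05), the interferon-stimulated genes (0 of 25, and 9) and glucose uptake and glycolysis (0 of 15, and 5). Of the 25 interferon-stimulated genes 20 had a positive log2 fold change. Monocyte markers had no call of 15 measured, nor any at an unadjusted p under 0.05, with a summed level of 767 to 7444 CPM in Con and 3330 to 6404 in T2D, and no marker of that list was at 0 in all libraries.

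Of the rule's genes, given as a description, Cxcr3 averaged 33.7 ± 13.4 CPM in selected Con cells and 104 ± 18.6 in T2D. Maf stood at 238 ± 37.4 and 432 ± 41.9 CPM, Icos at 313 ± 99.5 and 478 ± 88.2, Rora at 270.5 ± 151 and 415 ± 12.4, and Itgb1 at 704 ± 390.1 and 1088 ± 128.5. Ccl5, capped at 1 UMI by the rule, had a UMI in 7.94% of selected Con cells and 18.9% of selected T2D cells.

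Whether T2D acted differently on selected and marker-negative cells was tested as an interaction over 12 sums from the same 6 libraries. It called 26 of 8690 genes (0.299%), and 14 without Con 3, 15 without T2D 2 and 17 without T2D 3. CPM given here were scaled over all 12 sums, and so differ somewhat from those scaled over the 6 sums of selected cells. Vim differed by 0.95 ± 0.13 on the log2 scale, from 580 to 1007 CPM in selected cells and from 343 to 307 CPM in marker-negative cells. Txnip, an arrestin-like protein that limits glucose uptake, differed by -0.59 ± 0.10, from 1675 to 1451 CPM in selected and from 2531 to 3306 CPM in marker-negative cells. Nr4a3, Per1 and Smad7 showed no call for a difference, at -0.35, 0.03 and -0.25, whereas Dusp10 fell more in selected cells, by a further 0.54, a call it lost in 4 of the 6 fits that leave out 1 library. Without the monocyte-UMI cells 32 of 8287 genes were called, 22 of the 26 among them, with Vim at 0.80 and Txnip at -0.54. Of 37 memory and activation genes 6 had a positive call and none a negative one, and at a sum of 5 or more no gene of 8382 was called by edgeR, with 483 at an unadjusted p under 0.05, nor any by DESeq2.

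**Figure D5:**
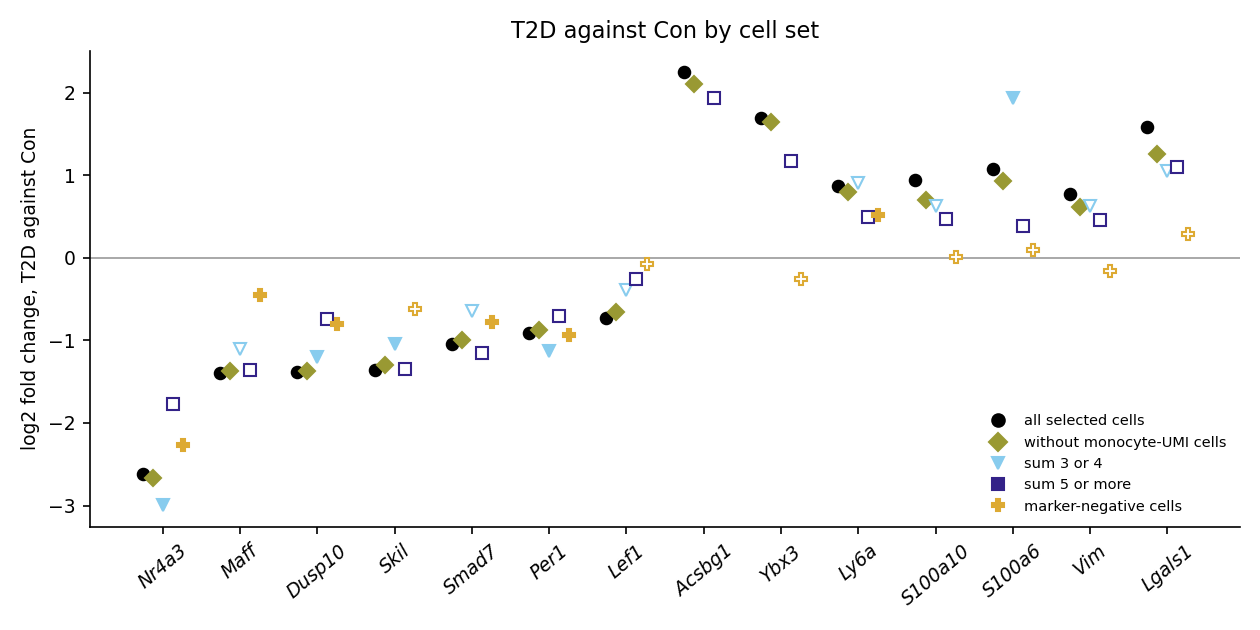
Log2 fold change of T2D against Con for the 14 genes plotted by library above in all 747 selected cells, in those without monocyte-UMI cells, at a sum of 3 or 4, at a sum of 5 or more, and in marker-negative CD4 T cells; filled symbols are called at an adjusted p under 0.05 in edgeR, and genes under the count filter have no symbol. At a sum of 5 or more every gene keeps its sign and none is called; S100a10 and Vim lie near 0 in marker-negative cells, and Nr4a3 lies at -2.26.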

How the data were processed

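Blood mononuclear cells were captured and barcoded on the BD Rhapsody platform, and the authors deposited 1 matrix of raw UMI counts per library, with no normalization (31253 genes). CASAVA 1.8, UMI-tools, Seurat and the mouse build mm10 are named in the submitters' processing notes, without roles or parameters. The lowest deposited barcode of each library held 501 to 503 UMIs, so shallower barcodes were not analysed here.

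Cells needed 200 or more detected genes and a mitochondrial UMI share of 20% or less. Counts of selected and comparison cells were summed per library and tested with edgeR 4.0.16 in R 4.3.3 (TMM scaling, filterByExpr, robust quasi-likelihood test, Benjamini-Hochberg adjusted p under 0.05), with library as a term between kinds of cell. All fits share the same 6 libraries. Shares were compared with two-sided exact permutation tests (scipy 1.17.1), and doublets were called with scrublet in scanpy 1.11.5 and kept. DESeq2 1.42.0, other scalings, filters and gates, thinning and leaving out each library were alternatives. The fit was tested on simulated data. The 17 genes used by the rule were left out of calls. A comparison with Foxp3 or Ikzf2 cells at any sum of the 5 genes and the fits without monocyte-UMI cells were added after the data were seen, as was the count of list members that reached the filter in each group of sums alone.

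Named genes were the 12 with the largest change each way among called genes (mean of at least 20 CPM in the higher group without overlap for T2D against Con, 50 CPM between kinds of cell), the 10 leading differences of effect, and up to 6 called and 3 uncalled members of each of 29 gene lists; only some of them are described, and a few genes outside this rule (Cxcr4 and Rgs1 in the narrowed cells among them) were chosen after their values were seen. Members and lists were chosen with earlier results of these data known. Same-numbered Con and T2D libraries did not deviate together (correlations of -0.0829, -0.239 and 0.0101), so the numbers were not used as pairs.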

Additional observations from a re-analysis of the deposited data

Results flagged for a closer look

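The change between T2D and Con differed between selected and marker-negative CD4 T cells, by edgeR's interaction test, most firmly for 10 genes. All 10 compare the same 6 libraries, and the part that the larger share of cells with a sum of 5 or more in T2D has in them was not tested; no gene was called when selected cells were limited to a sum of 5 or more (0 in edgeR, with 483 at an unadjusted p under 0.05, and 0 in DESeq2).

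Of the 10 genes 6 rose relative to marker-negative cells. Levels are means over the libraries of Con and then T2D, in CPM scaled over all 12 sums. Vim differed by 0.95 on the log2 scale. Lsp1, a leukocyte actin-binding protein, differed by 0.69 (892 to 1293 CPM in selected cells, 558 to 502 in marker-negative cells). Lgals1 differed by 1.31 (137 to 428 CPM, and 42.1 to 51.8). Tagln2, an actin-binding protein, differed by 0.69 (527 to 884 CPM, and 454 to 476). S100a10 differed by 0.94 (370 to 720 CPM, and 175 to 174). Crip1, a small LIM-domain protein, differed by 0.90 (271 to 443 CPM, and 222 to 190) and lost its call in 1 of the 6 fits that leave out a library.

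The others fell relative to marker-negative cells. Lef1 differed by -0.63 (913 to 550 CPM, and 1227 to 1155), and had the opposite sign, at 0.18, when selected cells were limited to a sum of 5 or more without monocyte-UMI cells. Vps37b, an endosomal sorting protein, differed by -0.68 (648 to 352 CPM, and 877 to 769). Txnip differed by -0.59. Zfp281, a zinc-finger transcription factor, differed by -0.79 (386 to 303 CPM, and 441 to 603), lower in selected and higher in marker-negative cells.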

How the results depend on the processing

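The larger share of selected cells in T2D kept its direction in every alternative, with log2 ratios of 0.72 to 1.91, and of 0.82 to 1.49 when 1 library was left out. Counts of called genes moved more. For T2D against Con (91 genes), 151 were called with no filter on low counts, 56 by DESeq2, 138 at a sum of at least 2, 2 at a sum of at least 4, 190 without called doublets, 16 at a sum of 3 or 4 only and 3 at a sum of at least 5 without monocyte-UMI cells. None (0) was called after thinning (187 at an unadjusted p under 0.05, 0 by DESeq2) or at a sum of at least 5 (0, with 326 and 1). Leaving out 1 library gave 29 (Con 3) to 78 (Con 2). With the replicate number as a block, which the data do not bear out as a pairing, 29 were called. Against marker-negative cells (1351), DESeq2 called 801, 852 were called without monocyte-UMI cells and 950 to 1543 with 1 library left out. Against Foxp3 or Ikzf2 cells (441), 675 were called with no filter, 672 at a sum of at least 2, 280 at a sum of at least 4, 106 after thinning, 212 at a sum of at least 5, 154 at that sum without monocyte-UMI cells, 292 when the Foxp3 or Ikzf2 cells could have any sum, and 331 (T2D 2) to 491 (Con 2) with 1 library left out. For the difference of effect (26), DESeq2 called 13, 44 were called without called doublets, 1 at a sum of at least 4, 1 at a sum of at least 5 without monocyte-UMI cells, 0 after thinning (363 unadjusted, 0 by DESeq2) and 0 at a sum of at least 5, and leaving out 1 library gave 14 (Con 3) to 30 (Con 1). With 42 selected cells drawn from every library, 66 of 3708 genes were still called between T2D and Con; the cause of the other changes in counts was not tested. Signs turned for Lyz2 against marker-negative cells, at -0.093 without monocyte-UMI cells and -0.0056 at a sum of at least 5 without them, for Lyz2 against Foxp3 or Ikzf2 cells, at -0.051 and -0.043 under the same settings, for Cxcl2, selected cells against Foxp3 or Ikzf2 CD4 T cells, at a sum of at least 2 (-0.047), and, at a sum of at least 5 without monocyte-UMI cells, for the Lef1 difference of effect (0.18) and Satb1 in T2D against Con (0.14). Depth limits the Con sums most, since Con 1 held 42 selected cells.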
